A study of Mus musculus with 8 samples.

Results

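Tlx1, Pbx2, Pbx3, Meis1, Meis2, Tcf21, Isl1 and Nr2f2 are 8 transcription factor genes with known roles in the mesenchyme of the spleen and pancreas. Their RNA was measured in sorted cells of the E12.5 mouse gut with MouseWG-6 v2 arrays (Illumina), which return a fluorescence intensity for every probe. All 20 probes that the platform annotation assigns to these 8 symbols were taken, out of 45281 on the array (which name 19057 genes), and all 8 gene identifiers were found in RefSeq. In the 4 Bapx1 null samples an EGFP cassette followed the start codon of both Bapx1 alleles (tm4.Tlu/tm4.Tlu) and removed part of the coding sequence. In the 4 wildtype samples EGFP was joined by an IRES to the 3' UTR of an otherwise intact Bapx1 allele, and the study writes a single targeted copy (+/tm2.Tlu). Both genotypes were on the C57BL/6J;129 background, and both were sorted by FACS for EGFP driven by the Bapx1 locus itself. As written, the genotypes also differed in the number of EGFP copies. Samples of a genotype are biological replicates according to the methods, and whether a sample pooled several embryos is not given in the sources used here. The comparison asks whether these genes depended on Bapx1 in Bapx1-expressing gut cells.

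Bapx1 (Nkx3-2) is a homeobox factor required in the mouse for the spleen, which condenses from splanchnic mesenchyme beside the stomach and dorsal pancreas. Tlx1 is a homeobox factor without which the splenic primordium does not persist. Pbx and Meis proteins are TALE homeobox cofactors that bind DNA together and with Hox proteins. Tcf21 is a basic helix-loop-helix factor of visceral mesenchyme and is needed for the spleen, Isl1 is a LIM homeobox factor needed for the dorsal pancreatic mesenchyme, and Nr2f2 (COUP-TFII) is an orphan nuclear receptor of stomach mesenchyme and venous endothelium.

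The promoters of these genes were searched for the hexamers bound by the Bapx1 protein, TGAGTG or TAAGTG, and by Meis proteins, TGACAG, on both strands and in windows of 300 bases (250 before to 50 after the start, RefSeq, GRCm38.p6). A window was at hand for 7 of the 8 genes, with Pbx3 missing. A Bapx1 hexamer stood in 1 of the 7, that of Meis2, against 7850 of 32851 promoters (23.9%), and a Meis hexamer in 1 of the 7, that of Tlx1, against 6300 (19.2%). Both matches are printed because Meis2 held the probe with the largest difference between the genotypes and Tlx1 is the spleen factor whose RNA was not detected. Each run is 30 bases in the direction of the gene, and capitals mark the hexamer, which lies on the opposite strand in both. The Meis2 match begins 164 bases before the start, within chr2:116064766-116064795 on the minus strand, and the Tlx1 match begins 135 bases before the start, within chr19:45150568-45150597 on the plus strand. A match of letters is a description and does not show that a protein binds there.
Meis2: ttaaatctccaaCACTTAcctagatataaa
Tlx1: ccctcccccgcgCTGTCAttcaccccgctc

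The arrays of the genotypes differed in quality and in markers of other cell types. Between 31% and 38.5% of probes were detected on Bapx1 null arrays and between 38.2% and 40% on wildtype arrays, a probe counting as detected where its detection p was under 0.01. Bapx1 null arrays correlated with their own group at a median r of 0.937 to 0.949 across genes, against 0.987 to 0.989 for wildtype arrays, and Bapx1 null replicates 2 and 3 stood apart on the first principal component. Markers were taken from lists, each gene by its brightest probe past the filter. All 10 listed gut mesenchyme markers were measured and 0 passed the test, with a summed normalised intensity of 22310 to 35990 in Bapx1 null and 28060 to 30480 in wildtype. Of 10 pancreatic epithelium markers 2 were measured, Gcg and Cpa1, and neither passed the test. Gcg was detected on 3 Bapx1 null and 2 wildtype arrays, with log2 means of 6.15 in Bapx1 null against 5.69 in wildtype. Cpa1 was detected on 1 Bapx1 null and 3 wildtype arrays, with a log2 mean of 5.55 in both genotypes. Nkx6-1 was detected on 1 array of each genotype, and Pdx1, Ptf1a, Neurog3, Neurod1, Pax6 and Ins2 on no array. Of 9 megakaryocyte and platelet markers 5 were measured, all 5 with a lower mean in Bapx1 null. Of these 3 passed the test, against 47 of all 9784 genes taken by their brightest probe. Their sum was 236.9 to 525.9 in Bapx1 null against 1124 to 6069 in wildtype. Ppbp and Gp5 were detected on 0 Bapx1 null and 4 wildtype arrays. They passed the filter (detection on at least 4 of the 8 arrays) through wildtype alone, so the filter fixed their direction. The sum was 177.6 to 437.3 in Bapx1 null against 421.9 to 11730 in wildtype for 5 of 10 fetal hepatocyte markers, and 187.5 to 1211 in Bapx1 null against 1388 to 3885 in wildtype for 4 of 9 red cell markers. It was 244 to 587.4 in Bapx1 null against 572.8 to 1086 in wildtype for 5 of 8 macrophage and leukocyte markers, and 449.3 to 619.6 in Bapx1 null against 648 to 1216 in wildtype for 4 of 8 gut epithelium markers. For 6 of 9 enteric neural crest markers it was 2580 to 2829 in Bapx1 null against 1717 to 2565 in wildtype, most of it from Ednrb (log2 means of 11.19 in Bapx1 null against 10.81 in wildtype). The median difference of these 6 was 0.05 on the log2 scale, and Elavl4 and Ret had lower means in Bapx1 null (-0.68 and -0.33). For 3 of 6 mesothelium markers the sum was 1545 to 2053 in Bapx1 null against 1592 to 3850 in wildtype, and all 3 had a lower mean in Bapx1 null. In the lists from fetal hepatocytes to mesothelium 0 genes passed the test by their brightest probe. A dimmer probe of the macrophage gene Adgre1 (ILMN_2847787) passed, at -1.97 (limma adjusted p = 0.017). The part of these differences in the values of the 8 genes was not tested.

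None of the 8 genes changed past the threshold in Bapx1 null gut cells. Intensities were background corrected, quantile normalised and put on a log2 scale, and probes detected on at least 4 of the 8 arrays were kept. This left 16 of the 20 probes, from 7 of the 8 genes, among 17440 probes in all. At an adjusted p under 0.05 (limma, Benjamini-Hochberg over all 17440 probes) 0 of the 16 probes passed, against 83 of all probes (0.476%, with 56 or 0.321% higher and 27 or 0.155% lower in Bapx1 null). At an unadjusted p under 0.05 the counts were 3 of 16 and 4487 of all probes (25.7%). The methods' t-test on the same values likewise called 0 of the 16 probes after adjustment, with 0 of all probes called and 3438 of them at an unadjusted p under 0.05.

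Each difference was taken as the Bapx1 null mean minus the wildtype mean in log2 units, with limma's standard error (SE). They ran from -1.11 to 0.57 over the 16 probes, 7 above and 9 below 0, and their median was -0.04 against 0.01 over all probes. The genotypes overlapped in all 16, whereas they did not overlap in 2989 of all probes (17.1%). The 95% interval of the difference lay inside a 2-fold change either way for 12 of the 16 probes, and for 12680 of all probes (72.7%). The 4 exceptions were both Pbx3 probes, ILMN_1215821 of Meis2 and ILMN_3163196 of Nr2f2. In bulk RNA a lower signal can come from fewer cells of a type or from less RNA per cell, and these cannot be told apart.

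**Figure D1:**
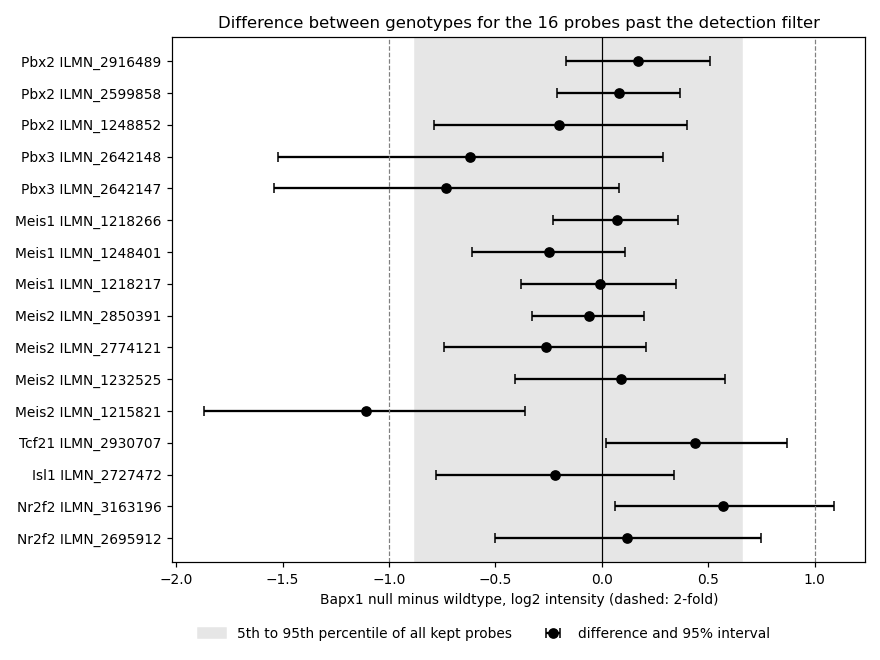
Difference between the genotypes (Bapx1 null minus wildtype, log2 intensity, horizontal axis) for the 16 probes past the detection filter, with its 95% interval as a bar; the grey band spans the 5th to the 95th percentile of all 17440 probes (-0.88 to 0.66) and dashed lines mark 2-fold. Of the 16 points 1, a Meis2 probe at -1.11, lies outside the grey band.

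Tlx1, on chromosome 19, was not detected in either genotype. Its only probe, ILMN_2511684, gave raw intensities of 43.3, 42.6, 45.6 and 48.1 on Bapx1 null replicates 1 to 4, against 49.5, 51.4, 47 and 44.8 on wildtype replicates 1 to 4. All 8 values lay under the lowest intensity of a detected probe on the same array, which was between 69.6 and 92.7. No fold is given, since the probe was not well above background in both genotypes, and expression below this level was not detectable. The related genes Tlx2 and Tlx3 were not detected on any array either.

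Pbx2, on chromosome 17, had all 3 of its probes past the detection filter. ILMN_2916489 had log2 intensities of 9.33, 9.80, 9.55 and 9.31 in Bapx1 null, against 9.24, 9.29, 9.48 and 9.30 in wildtype. Bapx1 null replicates 2 and 3 were the highest of the 8 arrays, followed by wildtype replicate 3. The difference was 0.17 ± 0.15 (SE, 95% interval -0.17 to 0.51, adjusted p = 0.471). ILMN_2599858 had 9.32, 9.52, 9.51 and 9.25 in Bapx1 null, against 9.22, 9.28, 9.39 and 9.38 in wildtype, a difference of 0.08 ± 0.13 (SE, 95% interval -0.21 to 0.37, adjusted p = 0.695). The genotypes were interleaved. The dim probe ILMN_1248852 was detected on 2 Bapx1 null arrays and on 4 wildtype arrays, with 6.85, 5.94, 5.43 and 6.36 in Bapx1 null against 6.39, 6.32, 6.27 and 6.4 in wildtype. Bapx1 null replicates 2 and 3, where it was not detected, were the lowest, replicate 1 was the highest of all 8 arrays, and the difference was -0.20 ± 0.27 (SE, adjusted p = 0.631).

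Pbx3, on chromosome 2, was dim throughout. ILMN_2642148 had log2 intensities of 6.4, 5.07, 4.88 and 6.37 in Bapx1 null, against 6.88, 6.52, 6.18 and 5.61 in wildtype. It was detected on all 4 wildtype arrays and only on Bapx1 null replicates 1 and 4, which lay within the wildtype range, while replicates 2 and 3 lay below it and hold values at background. The difference was -0.62 ± 0.40 (SE, 95% interval -1.52 to 0.29, adjusted p = 0.325). ILMN_2642147 showed the same arrays apart, with 5.80, 4.52, 5.05 and 6.34 in Bapx1 null against 6.43, 6.18, 6.30 and 5.70 in wildtype. Its difference was -0.73 ± 0.36 (SE, 95% interval -1.54 to 0.08, adjusted p = 0.224). Without Bapx1 null replicates 2 and 3, the arrays that stood apart on the first principal component, the difference was 0.09 for ILMN_2642148 and -0.09 for ILMN_2642147. The last Pbx3 probe, ILMN_2650972, was detected on no array, with raw intensities of 42.9 to 62.7 in Bapx1 null and 52.6 to 78.8 in wildtype.

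**Figure D2:**
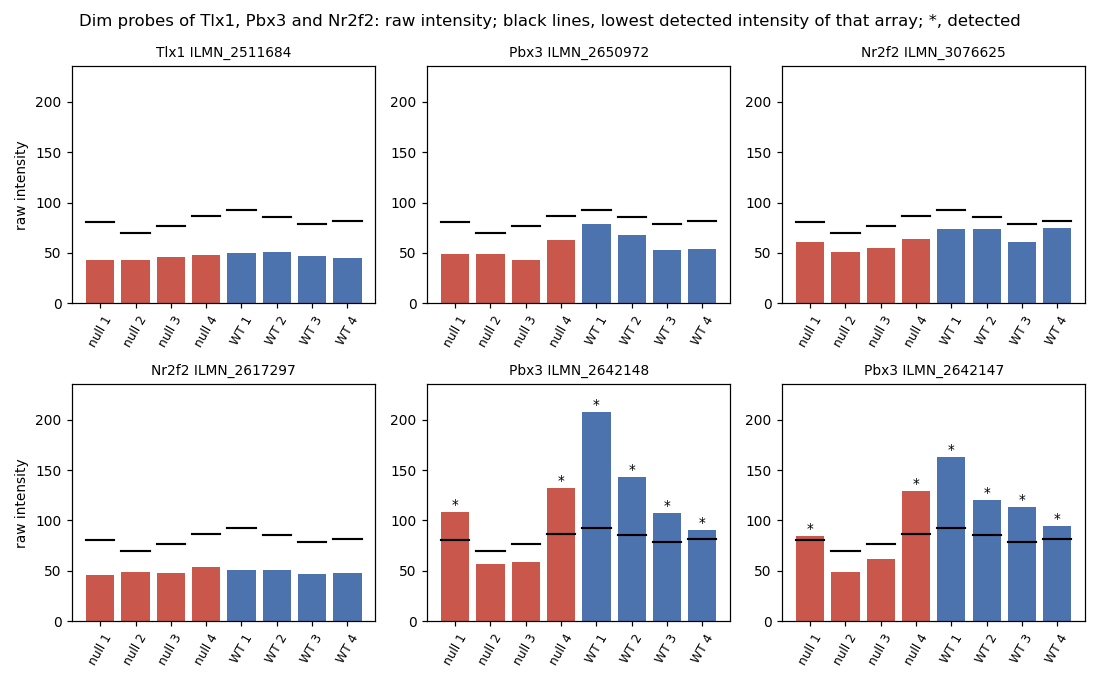
Raw intensity (vertical axis, linear from 0) on each of the 4 Bapx1 null arrays (red) and 4 wildtype arrays (blue, WT) for the probes of Tlx1 and Pbx3 and the Nr2f2 probes detected on no array. The dim Nr2f2 probe ILMN_2695912, detected on 3 Bapx1 null and 4 wildtype arrays, is not drawn. Black lines mark the lowest intensity of a detected probe on that array and asterisks mark detection. The Tlx1 bars stand between 42.6 and 51.4, under every line, and both detected Pbx3 probes fall under the line on Bapx1 null replicates 2 and 3 alone.

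Meis1, on chromosome 11, was detected on all 8 arrays by each of its 3 probes. ILMN_1218266, designed on its RefSeq transcript, had log2 intensities of 13.44, 13.23, 13.54 and 13.26 in Bapx1 null, against 13.35, 13.29, 13.20 and 13.35 in wildtype. Raw intensities were 5069.2 to 12371.6 in Bapx1 null and 9276.1 to 13461.9 in wildtype. The genotypes were interleaved after normalisation, and the difference was 0.07 ± 0.13 (SE, 95% interval -0.23 to 0.36, adjusted p = 0.743). ILMN_1248401, designed on the cDNA AK032947, had 10.62, 11.07, 10.44 and 10.76 in Bapx1 null, against 10.90, 11.07, 10.88 and 11.04 in wildtype. Bapx1 null replicates 1, 3 and 4 were below every wildtype array and replicate 2 matched the highest, with a difference of -0.25 ± 0.16 (SE, 95% interval -0.61 to 0.11, adjusted p = 0.318). ILMN_1218217, designed on the cDNA AK049720, had 9.27, 9.21, 9.65 and 9.20 in Bapx1 null, against 9.30, 9.56, 9.43 and 9.11 in wildtype, and its difference was -0.01 ± 0.16 (SE, 95% interval -0.38 to 0.35, adjusted p = 0.959). Bapx1 null replicate 3 was the highest of all 8 arrays for this probe.

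Meis2, on chromosome 2, was measured by 4 probes, all of them detected on every array. ILMN_2850391, on the RefSeq transcript, was nearly flat, with log2 intensities of 12.72, 12.64, 12.75 and 12.75 in Bapx1 null against 12.72, 12.83, 12.73 and 12.85 in wildtype. Its difference was -0.06 ± 0.12 (SE, 95% interval -0.33 to 0.20, adjusted p = 0.734), the narrowest interval of the 16 probes. ILMN_2774121, on the same transcript, had 12.38, 11.92, 12.84 and 12.82 in Bapx1 null against 12.69, 12.76, 12.65 and 12.92 in wildtype. Bapx1 null replicates 1 and 2 were below all wildtype arrays and replicates 3 and 4 among them, and the difference was -0.26 ± 0.21 (SE, 95% interval -0.74 to 0.21, adjusted p = 0.418). ILMN_1232525, on the cDNA AK045126, had 9.73, 10.70, 10.39 and 10.07 in Bapx1 null against 9.80, 10.16, 10.35 and 10.22 in wildtype, a difference of 0.09 ± 0.22 (SE, adjusted p = 0.808). For it the lowest and the highest array were both Bapx1 null.

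The largest difference among all the probes of these genes was found at ILMN_1215821 of Meis2, designed on the cDNA AK040611. Its log2 intensities were 8.54, 7.90, 8.83 and 9.83 in Bapx1 null, against 9.82, 10, 9.85 and 9.88 in wildtype. Raw intensities were 357.2, 125.8, 440.9 and 1075.9 in Bapx1 null, against 1271.2, 1145.8, 935.1 and 1143.5 in wildtype. Bapx1 null replicates 1, 2 and 3 were below every wildtype array, replicate 4 lay within the wildtype range, and the wildtype arrays differed little among themselves (8.77 ± 0.80 in Bapx1 null against 9.89 ± 0.08 in wildtype, mean ± SD, n = 4 each). The signal was 2.16-fold lower in Bapx1 null (log2 difference -1.11 ± 0.34 SE, 95% interval -1.87 to -0.36), with an adjusted p of 0.139 (limma), and did not pass. Without Bapx1 null replicate 4 the difference was -1.47 with an adjusted p of 0.0253, in a setting where 1865 of 17147 probes (10.9%) passed. It was -0.69 without Bapx1 null replicates 2 and 3 and -0.35 after adjusting for the share of probes detected on each array, and did not pass in either setting.

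The differences of the 4 Meis2 probes ran from -1.11 to 0.09, and whether these sizes differ was tested within arrays. The gap in log2 intensity between ILMN_2850391 and ILMN_1215821 was 3.94 ± 0.76 in Bapx1 null against 2.89 ± 0.06 in wildtype (mean ± SD, n = 4 each), a difference of 1.05 (exact two-sided permutation test, p = 0.0571). For ILMN_2774121 and ILMN_1232525 against ILMN_1215821 the same difference was 0.85 (exact permutation p = 0.0571) and 1.2 (exact permutation p = 0.0857). Over the 14 pairs of probes of the same gene the lowest Benjamini-Hochberg value was 0.4, and the smallest p that 4 against 4 arrays allow is 0.0286. The position of the probes in their transcripts was not analysed here.

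The pattern over the 8 arrays most like that of ILMN_1215821, by root mean square difference after centring each probe, belonged to Snx3, a sorting nexin (ILMN_2602128, 0.125 on the log2 scale), and Paics, an enzyme of purine synthesis (ILMN_1234068, 0.14). Snx3 had 5.14, 4.41, 5.34 and 6.29 in Bapx1 null against 6.23, 6.31, 6.18 and 6.07 in wildtype, with Bapx1 null replicate 4 close to the wildtype arrays as for Meis2; it was detected on 1 Bapx1 null array and 4 wildtype arrays. Paics had 9.18, 8.42, 9.67 and 10.37 in Bapx1 null against 10.31, 10.46, 10.38 and 10.20 in wildtype. Neither passed the test, with differences of -0.90 ± 0.33 for Snx3 (SE, limma adjusted p = 0.154) and -0.93 ± 0.35 for Paics (SE, limma adjusted p = 0.157).

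**Figure D3:**
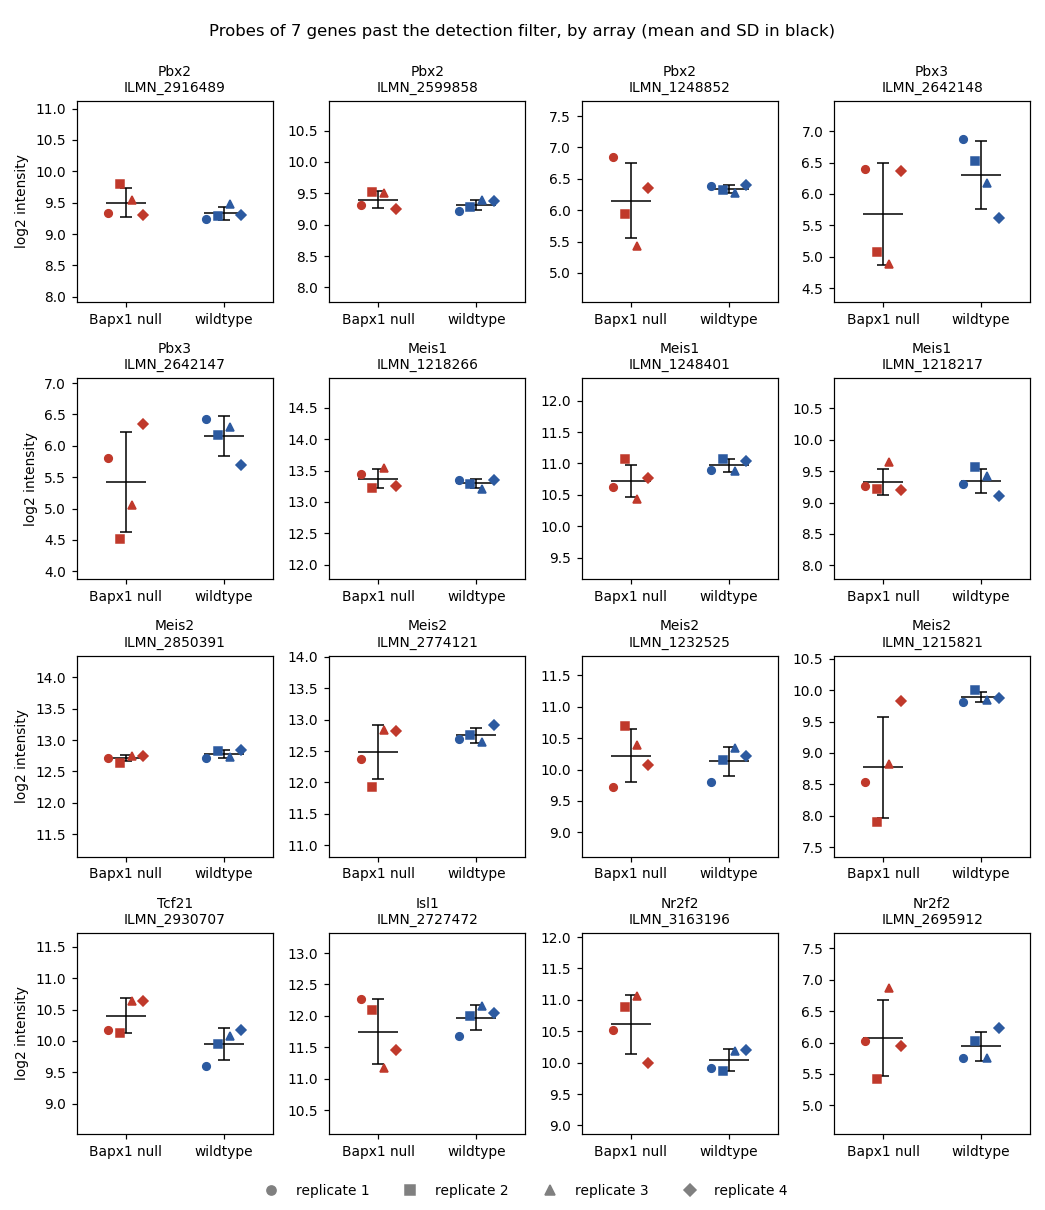
Log2 intensity (vertical axis, the same span in every panel) of the 16 probes past the detection filter on the 4 Bapx1 null arrays (red, left) and 4 wildtype arrays (blue, right); symbols mark the replicate number, and the black line and bar give the mean and the SD. The genotypes overlap in every panel, and Meis2 ILMN_1215821 shows Bapx1 null replicates 1, 2 and 3 between 7.90 and 8.83 with replicate 4 at 9.83 among the wildtype arrays.

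Tcf21, on chromosome 10, had a higher mean in Bapx1 null and did not pass the test. Its probe, ILMN_2930707, had log2 intensities of 10.18, 10.13, 10.64 and 10.64 in Bapx1 null, against 9.60, 9.95, 10.08 and 10.18 in wildtype. Bapx1 null replicates 3 and 4 were above every wildtype array, and replicates 1 and 2 reached only the highest wildtype values. The means were 10.4 ± 0.28 in Bapx1 null against 9.95 ± 0.25 in wildtype (mean ± SD, n = 4 each), a 1.36-fold difference (log2 0.44 ± 0.19 SE, 95% interval 0.02 to 0.87, limma adjusted p = 0.183). Over 22 alternative settings the difference was 0.33 to 1.31, measured from the median of all probes where a scaling moved that median by over 0.1, and passed in 0 of them. Without normalisation between arrays it was 0.47 relative to a median of -0.518, and -0.05 before that median was subtracted.

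Isl1, on chromosome 13, was detected on all 8 arrays by its single probe. ILMN_2727472 had log2 intensities of 12.27, 12.10, 11.17 and 11.45 in Bapx1 null, against 11.68, 12, 12.16 and 12.05 in wildtype. The Bapx1 null arrays fell on both sides of the wildtype arrays, with replicate 1 highest and replicates 3 and 4 lowest of the 8. The means were 11.75 ± 0.52 in Bapx1 null against 11.97 ± 0.20 in wildtype (mean ± SD, n = 4 each), a difference of -0.22 ± 0.25 (SE, 95% interval -0.78 to 0.34, limma adjusted p = 0.566). Scaling by the median and the median absolute deviation gave the opposite direction, at 1.55 relative to the median of all probes.

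Nr2f2, on chromosome 7, had its clearest signal at ILMN_3163196, with log2 intensities of 10.52, 10.89, 11.06 and 9.99 in Bapx1 null against 9.91, 9.87, 10.18 and 10.20 in wildtype. Bapx1 null replicates 1, 2 and 3 were above every wildtype array and replicate 4 was among them. The means were 10.61 ± 0.47 in Bapx1 null against 10.04 ± 0.17 in wildtype (mean ± SD, n = 4 each), a 1.49-fold difference (log2 0.57 ± 0.23 SE, 95% interval 0.06 to 1.09, limma adjusted p = 0.168). Without Bapx1 null replicate 4 it was 0.79 with an adjusted p of 0.0425, in the setting where 10.9% of all probes passed. Without Bapx1 null replicates 2 and 3 it was 0.21, after adjusting for the share of probes detected it was 0.25, and it passed in neither. Endothelium is another known source of Nr2f2 RNA. Of 10 endothelial markers 6 were measured and 0 passed, with a summed normalised intensity of 319.1 to 691 in Bapx1 null against 414.5 to 745.4 in wildtype. Of these 6, 1 had a higher mean in Bapx1 null (Eng, difference 1.11) and 5 a lower mean. Of 4 lymphatic markers Prox1 and Flt4 were detected on no array, Lyve1 on 2 wildtype arrays, and Pdpn on all 8 arrays. Pdpn had log2 means of 9.15 in Bapx1 null against 9.74 in wildtype (limma adjusted p = 0.148). The part of endothelial cells in the Nr2f2 values was not tested. ILMN_2695912 was dim, with 6.03, 5.42, 6.87 and 5.95 in Bapx1 null against 5.75, 6.03, 5.76 and 6.23 in wildtype, and was detected on 3 Bapx1 null arrays and 4 wildtype arrays. Bapx1 null held both its lowest and its highest array, and the difference was 0.12 ± 0.28 (SE, limma adjusted p = 0.779). ILMN_3076625 was detected on no array, although its raw intensities were 50.9 to 63.5 in Bapx1 null and 60.9 to 74.8 in wildtype, and ILMN_2617297 was detected on no array either, at 45.8 to 54.1 in Bapx1 null and 46.8 to 50.6 in wildtype.

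**Figure D4:**
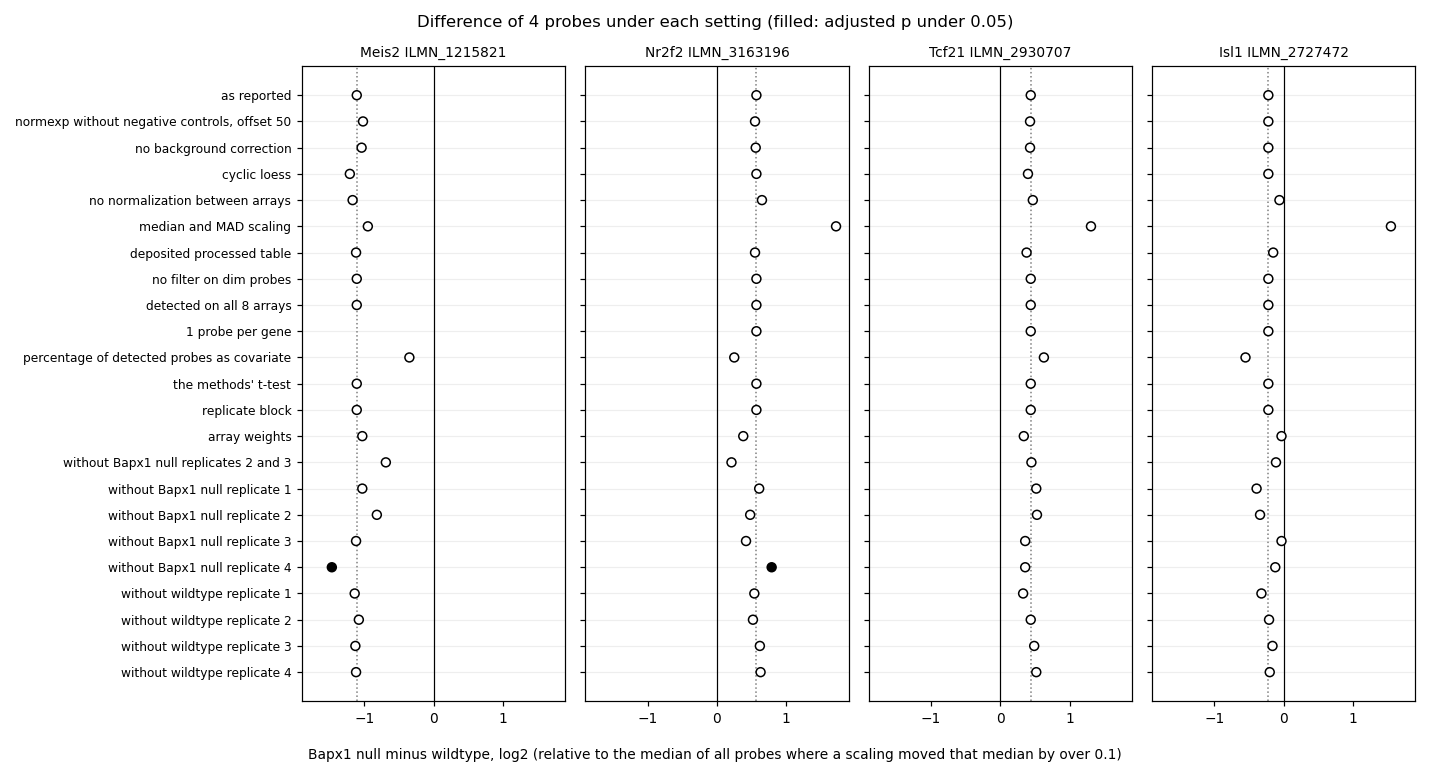
Difference between the genotypes (Bapx1 null minus wildtype, log2, horizontal axis, relative to the median of all probes where a scaling moved that median by over 0.1) for 4 probes under each processing setting; filled points have an adjusted p under 0.05. Meis2 ILMN_1215821 stays below 0 (-1.47 to -0.35) and Nr2f2 ILMN_3163196 (0.21 to 1.72) and Tcf21 (0.33 to 1.31) stay above it, Isl1 turns to 1.55 under 1 scaling, and the 2 filled points both belong to the setting without Bapx1 null replicate 4.

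Related genes were taken from lists in the same way as the markers, by the brightest probe past the filter. Over all 9784 genes taken in this way the median difference was 0.07 and 47 passed. Of 12 other TALE homeobox genes 6 were measured and 0 passed in either direction (limma), with a median difference of 0.03. Values for the 4 farthest from 0 were -0.45 ± 0.20 for Tgif1, a repressor of TGF-beta targets (SE, limma adjusted p = 0.195), 0.25 ± 0.17 for the Meis-related Pknox1 (adjusted p = 0.34), -0.13 ± 0.16 for its paralog Pknox2 (adjusted p = 0.587) and 0.08 ± 0.23 for Irx3 (adjusted p = 0.841).

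Of 15 other genes of spleen and pancreatic mesenchyme 11 were measured, 6 with a higher and 5 with a lower mean in Bapx1 null. Their median difference was 0.18, and 1 passed, Nkx3-2 (Bapx1) itself. Of the 2 probes of this gene only the brightest past the filter, ILMN_2687592, is given here. This probe had raw intensities of 132.6, 110.6, 122.3 and 144.4 in Bapx1 null, against 52.4, 53.7, 46.9 and 49.4 in wildtype, where it was detected on no array. The probe passed the detection filter through Bapx1 null alone, so the filter fixed the direction of its difference and the test adds no support for it. The log2 means were 6.94 ± 0.49 in Bapx1 null against 4.47 ± 0.03 in wildtype (mean ± SD, n = 4 each), and Bapx1 null exceeded wildtype at least 2.88-fold (limma adjusted p = 0.0119), taking for each wildtype array the lowest value of a detected probe. Where this probe lies relative to the EGFP cassettes was not analysed here, so it does not check the genotypes. The other 10 genes did not pass, among them Nkx2-5, a homeobox gene of the splenic anlage, at 0.25 ± 0.35 (SE, limma adjusted p = 0.652), and Barx1, a homeobox gene of stomach mesenchyme, at 0.83 ± 0.26 (SE, limma adjusted p = 0.145). In the other direction lay Fgf9 at -0.56 ± 0.28 (SE, limma adjusted p = 0.225) and Prrx1 at -0.53 ± 0.66 (SE, limma adjusted p = 0.606). The genotypes did not overlap for Hlx, a homeobox gene of visceral mesenchyme, with means of 10.03 ± 0.19 in Bapx1 null against 9.59 ± 0.19 in wildtype (mean ± SD, n = 4 each), and it did not pass either (0.44 ± 0.16 SE, limma adjusted p = 0.152). Over all 9784 genes taken by their brightest probe the genotypes did not overlap in 1817 (18.6%).

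Among 15 paralogs and partners of the 8 genes 12 were measured and 0 passed, with a median difference of 0.18. The largest values were those of Ldb2, a LIM domain-binding cofactor, and Zfpm2, a cofactor of GATA factors that also binds Nr2f2. Ldb2 averaged 11.28 ± 0.41 in Bapx1 null against 10.39 ± 0.17 in wildtype (mean ± SD, n = 4 each), a difference of 0.90 ± 0.21 (SE, limma adjusted p = 0.105), and Zfpm2 averaged 8.88 ± 0.44 in Bapx1 null against 8.10 ± 0.20 in wildtype (mean ± SD, n = 4 each), a difference of 0.78 ± 0.22 (SE, limma adjusted p = 0.132). The genotypes did not overlap in either gene, nor in 1817 of all 9784 genes taken by their brightest probe (18.6%). Ssbp2, a single-stranded DNA-binding cofactor of the LIM complex, had a difference of -0.48 ± 0.28 (SE, adjusted p = 0.286), and Lmo4, a LIM-only protein gene, 0.39 ± 0.17 (SE, adjusted p = 0.192).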

How the data were processed

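The authors deposited linear signal intensity per probe for 8 arrays (4 Bapx1 null, 4 wildtype), exported with GenomeStudio (version not given in the sources used here) and without background subtraction, the lowest value being 29.8. Beside it the authors deposited a score under a detection p header, which rose with intensity (lowest Spearman correlation across probes on an array 0.976), so the detection p was taken as 1 minus that score. The authors also deposited a processed table of log2 values, centred on array medians and on a baseline per probe whose source is unknown, with column medians of -0.0112 to 0.0145. It was used only as an alternative and, by matching differences between arrays over 45281 rows, to link intensities to probe names (largest mismatch 2.84e-06, next best row 0.0114). The platform annotation gave 1 symbol for 34885 probes, several for 18 and none for 10378.

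Intensities were corrected with nec of limma 3.58.1 in R 4.3.3 (offset 16, with the negative controls estimated through the detection p), then quantile normalised and log2 transformed. Probes with a detection p under 0.01 on at least 4 arrays entered a single limma fit (lmFit, eBayes, genotype as the only term). The fit was tested on simulated data. The number of arrays limits the precision. Background correction, normalisation, probe filter, probes per gene, a detection covariate, array weights, the replicate block and left-out arrays were varied. A t-test per probe was a further setting, labelled the methods' t-test in the figure of settings, although the paper's methods name ANOVA. The genes and lists were chosen with earlier results of these data known. All probes of the 8 genes are given. Of each of the 3 lists of related genes those past the threshold or the 4 farthest from 0 are named. Lists of cell type markers are given by counts and summed intensity. Genes named beyond these (Barx1, Nkx2-5, Hlx, Fgf9, Prrx1, Tlx2, Tlx3 and each single marker of a cell type) were chosen after their values were seen.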

Additional observations from a re-analysis of the deposited data

Results flagged for a closer look

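In a group of 4 arrays, 1 value far from the others was found in 1 of 32 groups examined (16 probes in each genotype), and chance gives about 1 in 20. At Meis1 ILMN_1218217 Bapx1 null replicate 3 read 9.65 on the log2 scale, and its gap to the nearest Bapx1 null array was 0.844 of the range of that group, above Dixon's critical value for 4 values.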

How the results depend on the processing

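The count of probes of the 8 genes past the threshold was 0 in every setting but the one without Bapx1 null replicate 4, where it was 2 (Meis2 ILMN_1215821 and Nr2f2 ILMN_3163196), so leaving out 1 array gave 0 to 2. Over all probes the count moved far more: 108 with cyclic loess, 309 with array weights, 107 without Bapx1 null replicates 2 and 3, 37 without the probe filter, 25 without normalisation, 4 with the processed table, 5 with the detection covariate, and 0 (7798 at an unadjusted p under 0.05) with scaling by median and median absolute deviation, against 83 here. The t-test per probe gave 0 after adjustment and 3438 at p under 0.05, 420 of them over 2-fold. Leaving out Bapx1 null replicates 1, 2, 3 and 4 gave 61, 78, 1 and 1865, and leaving out wildtype replicates 1, 2, 3 and 4 gave 0, 8, 15 and 0. Those 2 zeros stood beside 2846 and 3093 probes at an unadjusted p under 0.05 (limma).

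The labels do not say whether replicate numbers pair the arrays, and the following values do not decide it. Deviations of same-numbered arrays correlated at 0.144, -0.182, -0.00748 and -0.165, and with the replicate block 5 probes passed, 0 of them among the 8 genes, whose lowest adjusted p was 0.176.

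Direction changed in these settings, in each case for a value that did not pass, and the cause was not tested. With the detection covariate the differences were -0.08 and -0.04 for Pbx2 ILMN_2916489 and ILMN_2599858, 0.02 for Pbx3 ILMN_2642147, and 0.17 and -0.29 for Meis2 ILMN_2774121 and ILMN_1232525. Without Bapx1 null replicates 2 and 3 they were -0.01, -0.04 and 0.26 for Pbx2 ILMN_2916489, ILMN_2599858 and ILMN_1248852, 0.09 for Pbx3 ILMN_2642148 and -0.23 for Meis2 ILMN_1232525. With array weights they were 0 and 0.22 for Pbx2 ILMN_2599858 and ILMN_1248852 and -0.24 for Meis2 ILMN_1232525. Cyclic loess gave -0.02 for Meis1 ILMN_1218266. Scaling by median and median absolute deviation, which moved the median of all probes to 0.74, gave 1.03 and 0.45 for Meis1 ILMN_1248401 and ILMN_1218217, 2.03 and 1.69 for Meis2 ILMN_2850391 and ILMN_2774121, 1.55 for Isl1 and -0.57 for Nr2f2 ILMN_2695912, relative to that median. The processed table (median -0.296) gave -0.02 for Pbx2 ILMN_2599858 and 0.03 for Meis2 ILMN_2850391, and no normalisation (median -0.518) gave 0.12 for Meis2 ILMN_2850391, each relative to its own median. Leaving out 1 array gave -0.44 to 0.04 for Pbx2 ILMN_1248852, -0.12 to 0.06 for Meis1 ILMN_1218217, -0.07 to 0.25 for Meis2 ILMN_1232525 and -0.14 to 0.35 for Nr2f2 ILMN_2695912. Signal close to background limits Tlx1, Pbx3 and the dim probes of Pbx2 and Nr2f2.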
